A study of Mus musculus with 2 samples.

Results

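The genes described here are 7 mouse microRNA genes whose precursors are known to be made without the nuclear endonuclease Drosha. Mir702, Mir877, Mir1224, Mir1981 and Mir3102 are mirtrons, and Mir320 and Mir484 are other Drosha-independent hairpins. They were chosen by name from what is known of their biogenesis, with earlier results of these data already known. All 7 were found among the 2202 microRNA genes of the deposited counts. The libraries came from the hippocampus of B6CASTF1/J males aged 10 days; the strain is the F1 cross between C57BL/6J and CAST/EiJ. There was 1 group of 2 biological replicates, each labelled with 3 males, with no treatment or mutation named, so no condition could be compared. Animal numbers differ between the replicates in the labels, although 1 donor identifier is given for both, so the spread between them may be partly technical. Small RNA fragments below 30 nt were sequenced.

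Most animal microRNAs are cut from long primary transcripts by Drosha with its partner DGCR8, exported to the cytoplasm, and cut again by Dicer. A mirtron is a short intron that the spliceosome removes from its host transcript; after the lariat is opened by the debranching enzyme, the intron folds into a hairpin that Dicer can cut. The ends of a mirtron hairpin are therefore splice sites, with GU at the 5′ end and AG at the 3′ end of the intron. Precursors of Mir320 and Mir484 are instead known to arise as short capped transcripts whose 5′ end is a transcription start.

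All 7 genes were read in both libraries. Mir320 and Mir484 were the most abundant, with means of 2451 and 2291 counts per 1000000 counts on microRNA genes (CPM). The 5 mirtrons lay between 278 and 469 CPM. None of the 7 differed at least 2-fold between the libraries. Among the mirtrons, Mir1981 and Mir3102 had higher levels in replicate 1, while Mir877, Mir1224 and Mir702 had more in replicate 2.

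The 5′ arms of the mirtrons are shown first because each begins at the intron's first base. Sequences are RefSeq's on GRCm38.p6, written 5′ to 3′, with the seed (bases 2 to 8, which pair with targets) in capitals. Mature sequences were matched for 6 of the 7 genes, all but Mir320.
mmu-miR-877-5p: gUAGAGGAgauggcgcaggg
mmu-miR-1981-5p: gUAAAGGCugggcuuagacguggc
mmu-miR-3102-5p: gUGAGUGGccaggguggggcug
mmu-miR-1224-5p: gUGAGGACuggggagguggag
mmu-miR-702-5p: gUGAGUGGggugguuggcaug
The arms of Mir3102 and Mir702 share the seed UGAGUGG. No other of the 1679 mature names in the sequence table has that seed, and each of the other member arms has a seed of its own. The arm of Mir1224 shares the run GUGAG at its 5′ end with both.

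The run GUGAG opened 3 of the 13 member arms, against 14 of all 1679 mature names, or 0.834%. GU opened 5 of the 13 member arms, against 60 of 1679, or 3.57%. Both counts were taken at the 5′ end of the mature strand only, and each GUGAG arm is also a GU arm. In a mirtron these letters are the 5′ splice site of the host intron, so choosing mirtrons largely set this contrast.

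The 3′ arms and the single mature strand of Mir484 are shown for their ends and for contrast.
mmu-miR-877-3p: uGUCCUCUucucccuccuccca
mmu-miR-1981-3p: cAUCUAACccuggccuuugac
mmu-miR-3102-3p: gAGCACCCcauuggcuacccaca
mmu-miR-1224-3p: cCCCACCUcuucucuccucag
mmu-miR-702-3p: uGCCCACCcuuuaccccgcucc
mmu-miR-484: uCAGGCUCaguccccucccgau
The 3′ arm of Mir1224 ends on the intron's last base, with the AG included. Those of Mir877 and Mir3102 end 1 base before it, and those of Mir1981 and Mir702 end 2 bases before it. Mir3102 has a second pair of arms nested inside the outer pair. The deposited counts are per gene, so the reads of the arms could not be told apart.
mmu-miR-3102-5p.2-5p: gGUGGUGCaggcaggagagcc
mmu-miR-3102-3p.2-3p: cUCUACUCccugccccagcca

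The whole hairpins of 4 mirtrons show the splice sites, with the GU of the intron start and, where the hairpin reaches it, the AG of the intron end in capitals.
Mir877: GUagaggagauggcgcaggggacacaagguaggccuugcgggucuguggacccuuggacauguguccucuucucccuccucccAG
Mir1981: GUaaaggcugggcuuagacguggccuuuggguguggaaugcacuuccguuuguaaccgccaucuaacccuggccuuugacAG
Mir1224: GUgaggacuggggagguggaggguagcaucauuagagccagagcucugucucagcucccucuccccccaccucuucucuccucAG
Mir702: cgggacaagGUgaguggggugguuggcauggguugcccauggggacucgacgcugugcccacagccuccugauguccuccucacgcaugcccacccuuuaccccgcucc
In Mir702 the annotated hairpin opens with 9 bases of the upstream exon and stops 2 bases before the intron's end. Over the whole table, 42 of 2202 annotated hairpins, or 1.91%, start with GU and end with AG, and 4 of the 7 members are among them, Mir3102 included.

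Positions are given on mm10 (GRCm38) from GENCODE M21, with introns numbered in the host's own direction. Mir877 fills intron 12 of 22 of Abcf1 (ENSMUSG00000077931.1, chr17:35960730-35960814, minus strand, 85 bases). Abcf1 encodes an ATP-binding cassette protein of translation initiation. Mir1981 fills intron 5 of 7 of Marc2 (ENSMUSG00000088559.1, chr1:184822407-184822488, minus strand, 82 bases), a mitochondrial amidoxime-reducing enzyme gene. Mir3102 fills intron 8 of 20 of Arhgef17 (ENSMUSG00000093296.1, chr7:100882306-100882409, minus strand, 104 bases). A transcript annotated as intron-retaining also carries Mir3102 within an exon.

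Mir1224 fills the last intron, 22 of 22, of Vwa5b2 (ENSMUSG00000080669.1, chr16:20604452-20604536, plus strand, 85 bases). In all 4 of these genes both hairpin ends coincide with the intron ends, base for base. Mir702 overlaps intron 13 of 18 of Plod3 (ENSMUSG00000076240.1, chr5:136991433-136991541, plus strand), which encodes a lysyl hydroxylase of collagen. The intron runs from 136991442 to 136991543 and is 102 bases long. The 5 hosts contain no other microRNA gene of the table on the same strand.

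Mir320 and Mir484 lie in no host gene on their own strand. Mir320 (ENSMUSG00000065528.1, chr14:70443510-70443591, plus strand, 82 bases) starts 63 bases from the annotated start of Polr3d, an RNA polymerase III subunit gene on the opposite strand. Only 30 of the 2202 genes, or 1.36%, have an opposite-strand transcript start within 100 bases. Mir484 (ENSMUSG00000070074.1, chr16:14159626-14159692, plus strand, 67 bases) starts 359 bases from the annotated start of Marf1 on the opposite strand. The nearest start on its own strand, that of Nde1, is 3649 bases away. A hairpin was called start-proximal when it began within 100 bases of an annotated same-strand transcript start, and none of the 7 members did. Starts on either strand were those of protein-coding and long noncoding genes, without microRNA genes. A start annotated only for a microRNA gene itself could therefore not count, so this says nothing of where the precursors of Mir320 and Mir484 begin.

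The libraries held 4815761 counts on genes in replicate 1 and 3495401 in replicate 2, so that 3 counts correspond to 0.623 and 0.858 CPM. Levels are per gene and not divided by length, since the counted fragments are all below 30 nt. Intervals given with levels are exact Clopper-Pearson intervals at the 95% level and cover counting error only. The 18 genes of the neuronal list held 7.81% of replicate 1 counts and 9.66% of replicate 2 counts, with none at 0 in both. Most of this share came from Mir139 (31820 CPM in replicate 1, 57346 CPM in replicate 2) and Mir149 (25508 and 19256 CPM). No other gene of this list was above 7072 CPM in either library. Liver and striated muscle microRNAs took 0.0153% and 0.00781%, with 4 of 9 at 0 in both libraries. Those 4 have near-identical copies, whose reads can fit several places and be left out. Their lack of counts therefore cannot show absence, and the share of this list may be too low. The other genes of this list have no such copies, and each was read in both libraries. Blood microRNAs held 0.164% in replicate 1 and 0.0885% in replicate 2, with none of the 5 in the table at 0 in both. The 3 Mir124a loci, near-identical copies of the best-known neuronal microRNA gene, held at most 3.15 CPM each in reads assigned to 1 place.

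Mir320, a hairpin with a 5′ cap in its precursor, had 3020.5 CPM in replicate 1 (interval 2972 to 3070) and 1881 CPM in replicate 2 (1836 to 1927). Its mean was 2451 ± 806 CPM (SD, n = 2), the 72nd-highest of the table. The replicate 1 value was 1.61 times the replicate 2 value, a log2 ratio of 0.68 with a counting interval of 0.64 to 0.73. In tissue libraries such as these, fewer cells of a type and less RNA per cell cannot be told apart. Mir320 had the widest spread of the 7, with a coefficient of variation of 32.9%.

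Mir484, the hairpin near the start of Marf1, had 2280 CPM in replicate 1 against 2303 CPM in replicate 2, a mean of 2291 ± 16.1 CPM (SD, n = 2). Its coefficient of variation was 0.701%, the narrowest of the 7, and its log2 ratio of -0.014 had a counting interval of -0.056 to 0.027. The order of the pair differed between the libraries. Mir320 was 1.32 times Mir484 in replicate 1 (counting interval 1.29 to 1.36) and 0.817 times Mir484 in replicate 2 (0.791 to 0.844).

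Mir877, in the Abcf1 intron, was the most abundant mirtron by mean, with 382 CPM in replicate 1 against 557 CPM in replicate 2 (469 ± 124, SD, n = 2). Mir1981, in the Marc2 intron, had 502 CPM in replicate 1 against 349 CPM in replicate 2 (426 ± 108, SD, n = 2). Thus Mir1981 was the higher of this pair in replicate 1, at 1.32 times Mir877, and the lower in replicate 2, at 0.627 times. The intervals of these quotients, 1.24 to 1.40 in replicate 1 and 0.583 to 0.674 in replicate 2, lie on opposite sides of 1.

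Mir3102, in the Arhgef17 intron, had 341 CPM in replicate 1 against 235 CPM in replicate 2 (288 ± 74.5, SD, n = 2). Mir1224, in the Vwa5b2 intron, had 228 CPM in replicate 1 against 334 CPM in replicate 2 (281 ± 74.9, SD, n = 2). Mir702, in the Plod3 intron, had 230 CPM in replicate 1 against 326 CPM in replicate 2 (278 ± 67.4, SD, n = 2). The means of these 3 differ by less than their spread, and they rank 164, 166 and 167 in the table.

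**Figure D1:**
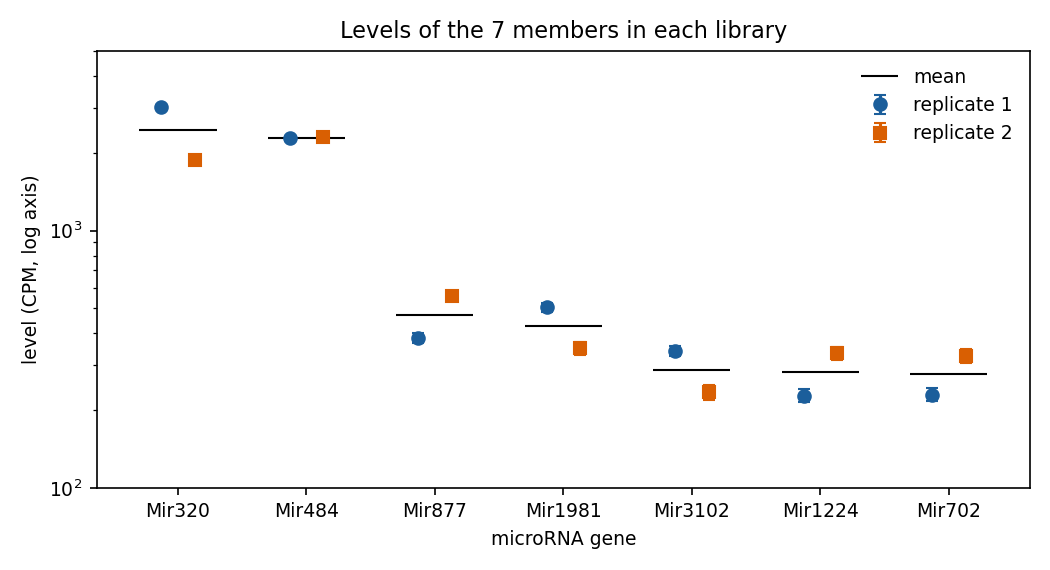
Level of each of the 7 genes in CPM on a log axis, with circles for replicate 1, squares for replicate 2, lines for the mean, and bars for the 95% Clopper-Pearson interval. Mir320 and Mir484 lie between 1881 and 3020.5 CPM, and the 5 mirtrons lie between 228 and 557 CPM.

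In order of the mean, the genes ran Mir320, Mir484, Mir877, Mir1981, Mir3102, Mir1224 and Mir702. The values of Mir484 and Mir877 did not overlap between the libraries, with means 4.88-fold apart. Nor did those of Mir1981 and Mir3102, with means 1.48-fold apart, but by a narrow margin. Mir1981 had 349 CPM in replicate 2 (interval 330 to 369), and Mir3102 had 341 CPM in replicate 1 (324 to 357), so their counting intervals overlap. The other neighbours in the order overlapped. Together the 7 genes held 0.698% of replicate 1 counts and 0.598% of replicate 2 counts (0.648 ± 0.0706%, SD, n = 2). The mirtrons supplied 24.1% of the members' counts in replicate 1 and 30.1% in replicate 2, and Mir320 with Mir484 supplied the rest. The mirtrons' own share was 0.168% of counts in replicate 1 and 0.180% in replicate 2 (0.174 ± 0.00832%, SD, n = 2).

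Because only 1 group was sequenced, each gene's counts were set against each other between the libraries with a binomial test, exact and two-sided, and p-values were adjusted by Benjamini-Hochberg over all 540 genes holding at least 10 counts in total. This test compares these libraries, not conditions, and its p-values hold counting error only. A gene was called when the adjusted p was below 0.05 and the log2 ratio, replicate 1 over replicate 2, was at least 1 in size. Of the 540 genes, 101 were called, or 18.7%, and of these 38.6% were higher in replicate 1 (46.9% with TMM factors and 55.6% with DESeq2 size factors). Of the 7 members, 0 were called. With the adjusted p alone, 301 of the 540 passed, or 55.7%, and 6 of the 7 members did.

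Mir484 was the member that did not pass, with an exact binomial adjusted p of 0.611, and its log2 ratio of -0.014 turned to 0.056 with TMM factors and 0.16 with DESeq2 size factors. Mir320 had an exact binomial adjusted p of 1.78e-233 at its log2 ratio of 0.68. Mir1981 had a log2 ratio of 0.52 with an exact binomial adjusted p of 2.37e-25. Mir3102 had one of 0.53 and 4.96e-18. The remaining mirtrons had negative ratios, of -0.54 for Mir877, -0.55 for Mir1224 and -0.50 for Mir702, with exact binomial adjusted p of 1.97e-30, 5.43e-19 and 9.75e-16. The median absolute log2 ratio was 0.53 for the 7 members and 0.54 for all genes tested, which include sparsely counted genes. The median signed ratio was -0.014 for the members and -0.17 for all tested. For the 209 tested genes with a mean of at least 100 CPM, the members included, the median absolute ratio was lower, at 0.43. Their median signed ratio was -0.14. The summed share of the blood list was higher in replicate 1, as were Mir320, Mir1981 and Mir3102. Of its 5 genes 3 were called, Mir451a and Mir144 higher in replicate 1 and Mir150 lower, at 372 CPM in replicate 1 against 776 CPM in replicate 2. Without Mir451a (a setting added once the values had been seen) the list held 0.04998% of counts in replicate 1 against 0.0844% in replicate 2. The part of blood RNA in the members' ratios was not tested.

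**Figure D2:**
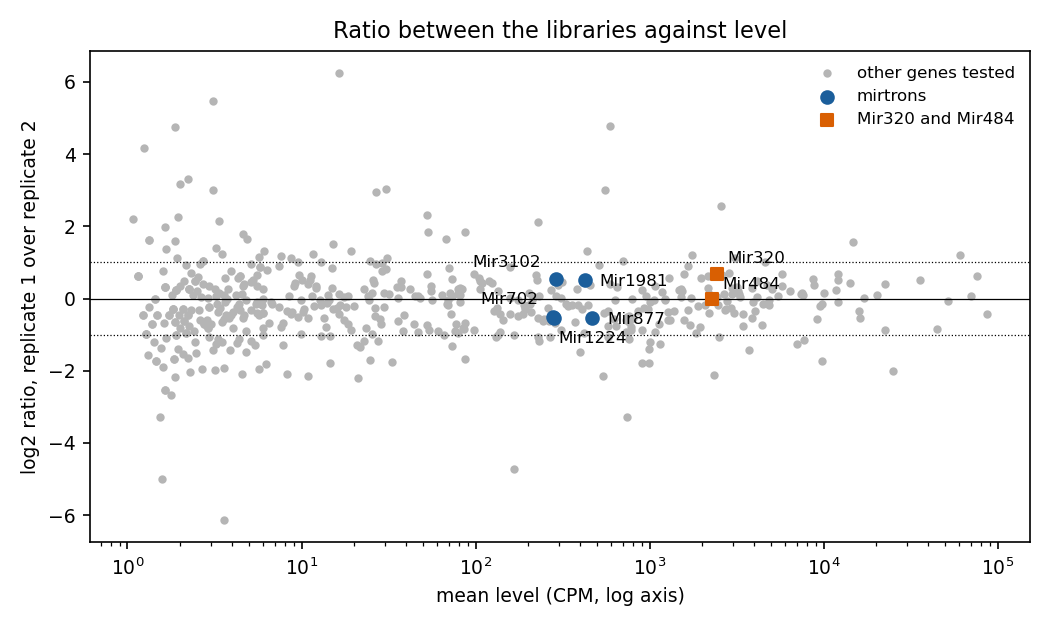
Log2 ratio of replicate 1 over replicate 2 against mean level for the 540 genes tested, with members in colour and dotted lines at 2-fold. All 7 members lie within the dotted lines, Mir320, Mir1981 and Mir3102 above 0, and Mir877, Mir1224 and Mir702 below.

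Mirtrons whose log2 ratios had the same sign stood in like proportions in both libraries. Mir1981 was 1.475 times Mir3102 in replicate 1 (counting interval 1.38 to 1.57) and 1.484 times in replicate 2 (1.36 to 1.62). Mir877 was 1.67 times Mir1224 in both libraries, and Mir1224 was 0.991 times Mir702 in replicate 1 and 1.03 times in replicate 2. For genes with ratios of opposite sign the proportions differed, as Mir3102 was 1.48 times Mir702 in replicate 1 and 0.722 times in replicate 2. With 2 libraries, each pair of genes either moves the same way or does not, so these proportions are a description.

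**Figure D3:**
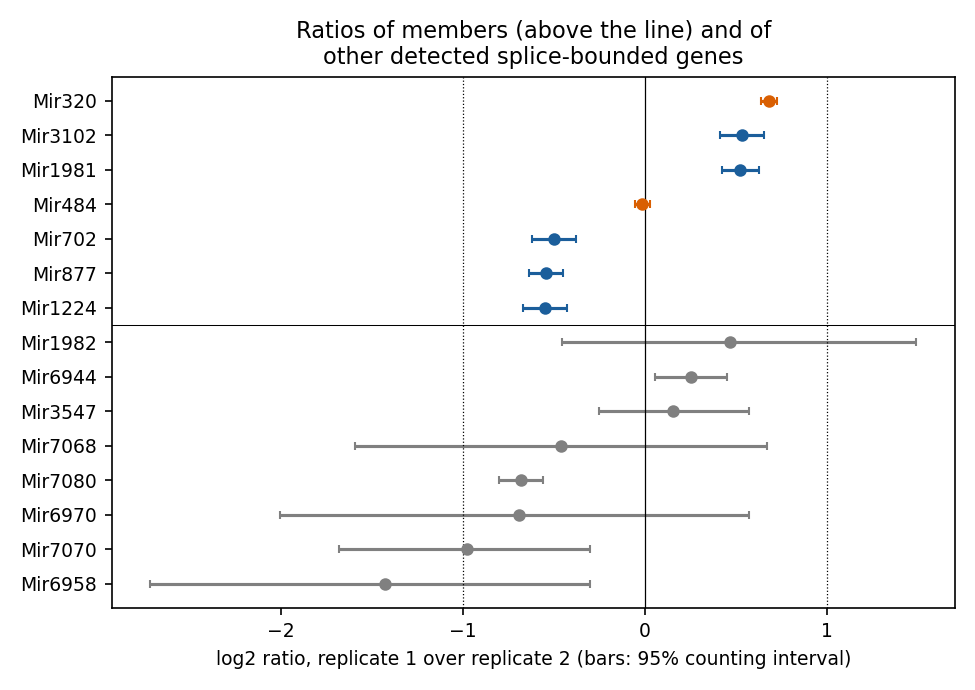
Log2 ratio of replicate 1 over replicate 2 with 95% counting intervals for the 7 members, above the line, and the 8 other detected genes that fill an intron, below it; orange marks Mir320 and Mir484. Mir320, Mir3102 and Mir1981 lie above 0 and Mir702, Mir877 and Mir1224 below, while several sparsely counted genes have intervals wider than 1.

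Genes whose hairpin ends both lie within 5 bases of the ends of 1 annotated intron were called splice-bounded, and 22 of the 2202 were. Their introns had a median length of 85 bases, from 67 to 137. Members were 4 of the 22, and all 4 were detected, meaning at least 2 CPM in both libraries. Of the 18 others, 8 were detected and 4 had no counts in either library. The 4 members supplied 78.9% of the class's counts in replicate 1 and 74.3% in replicate 2. Of the 18 others, 16 also start with GU and end with AG.

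Mir7080, in intron 12 of 14 of the copine gene Cpne7, was the most abundant splice-bounded gene outside the members. It had 221 CPM in replicate 1 against 354 CPM in replicate 2 (288 ± 94.4, SD, n = 2), a level between those of Mir3102 and Mir1224. Mir6944, in intron 9 of 14 of Dbn1, which encodes the actin-binding protein drebrin of dendritic spines, had 115 CPM in replicate 1 against 96.7 CPM in replicate 2 (106 ± 13.1, SD, n = 2). Mir3547, in intron 25 of 33 of Baiap3, had 26.8 CPM in replicate 1 against 24.0 CPM in replicate 2.

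Mir7080 had a log2 ratio of -0.68, on the side of Mir877, Mir1224 and Mir702, and Mir6944 had one of 0.25. Of the splice-bounded genes outside the members, 1 of 9 tested was called, Mir6958, with 10 counts in replicate 1 and 20 in replicate 2.

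Mature arms started at the intron's first base in 5 of 12 mirtron arms, and in 12 of 28 arms of the other splice-bounded genes with a RefSeq entry. They did so in 7 of 378 arms of genes meeting an intron end at 1 side only, and in 0 of 583 arms of intronic genes away from both ends. An arm ended within 2 bases of the intron's end in 5 of the 12 mirtron arms, 12 of the 28, 168 of the 378 and 1 of the 583. The classes follow from hairpin ends, so these counts restate the annotation at the level of the mature strands.

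**Figure D4:**
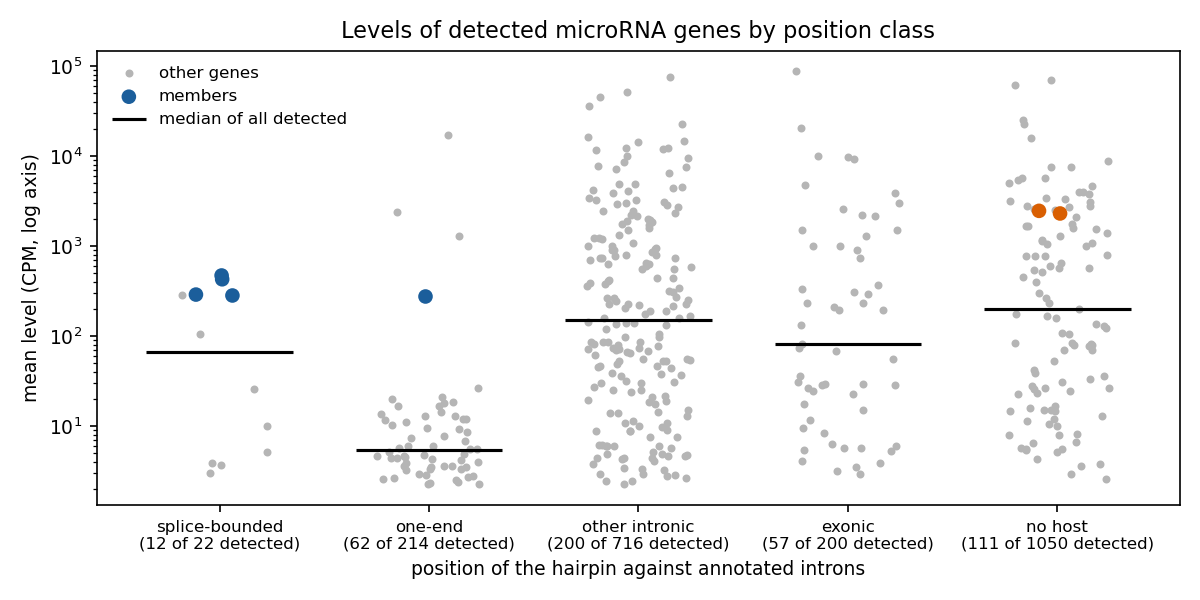
Mean level in CPM on a log axis of each detected gene, by position of the hairpin against annotated introns; large blue points are the mirtrons, large orange points Mir320 and Mir484, and lines the median of all detected genes of a class. Members lie above the medians of their classes. Mir702 stands at 278 CPM in the class meeting an intron end at 1 side only, with a median of 5.33 CPM. It falls there at the tolerance of 5 bases and is splice-bounded at 10.

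Detected splice-bounded genes had a median of 65.7 CPM, against 151 CPM for detected intronic hairpins away from intron ends and 201 CPM for those with no host. The 4 members were among the 12 detected splice-bounded genes and had a median of 357 CPM. The 18 other splice-bounded genes, detected or not, had a median of 1.42 CPM. Each member lay above the median of the detected genes of its own class, members included. The highest intronic hairpin away from intron ends reached 75518 CPM. Classes differ in how many genes have near-identical copies, whose reads can be lost. None of the 7 members shared a run of 20 bases with another microRNA gene, against 98 of the 540 tested genes, or 18.1%.

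The members' hairpins were richer in G and C than most, with a median of 61.2% (53.7% in Mir1981 to 65.1% in Mir702), against 53.1% for the 540 tested genes. The 22 splice-bounded genes, 4 of them members, had a median of 61.9%, so this was not particular to the members. Predicted folding energy per base had a median of -0.435 kcal/mol in the members and -0.430 kcal/mol in the tested genes. Mir320 and Mir3102 had the most stable predicted folds, at -0.559 and -0.557 kcal/mol per base, and Mir484 the least, at -0.367. No read was counted on the opposite strand of any member in either library, which was also so for 506 of the 540 tested genes, or 93.7%.

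Other microRNAs with unusual biogenesis gave further points of reference. Mir1983, derived from a tRNA, had 2481 CPM in replicate 1 against 3009 CPM in replicate 2 (2745 ± 373, SD, n = 2), above Mir320 by mean. Mir1839, which is derived from a snoRNA, had 1206 CPM in replicate 1 against 1246 CPM in replicate 2. Mir664, another snoRNA-derived gene, had 66.7 CPM in replicate 1 against 106 CPM in replicate 2, below every mirtron of the list. Mir451a, whose hairpin is cut by Drosha and then by Argonaute2 in place of Dicer, had 1143 CPM in replicate 1 against 41.5 CPM in replicate 2, and was the only one of these 4 called. It is abundant in red blood cells.

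The genes nearest to Mir320 in level over both libraries were Mir369 (2932 CPM in replicate 1, 1867 CPM in replicate 2), Mir485 (3160 and 2027 CPM) and Mir708 (2637 and 1695 CPM). Likeness was the Euclidean distance of log2(CPM + 1) over 2 libraries, at 0.0442, 0.126 and 0.247. Mir369 and Mir485 both lie in Mirg on chromosome 12, and Mir708 lies in an intron of Tenm4.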

How the data were processed

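The authors deposited raw read counts per microRNA gene, 1 file per library with 3 columns of counts (unstranded and each strand) and 4 lines of totals. Reads were placed on mm10 with GENCODE M21, per the notes deposited beside each file; which aligner and counter made the counts is not stated in the sources used here. Sense counts were column 3. CPM was counts per 1000000 counts on genes. Of 12369585 reads in replicate 1 and 10106239 in replicate 2, 38.9% and 34.6% were on genes, while 37.7% and 39.8% fitted several places and were left out with the other totals.

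All 2202 identifiers matched GENCODE M21, and 1018 genes matched RefSeq's microRNA sequences. Libraries were compared as described above, with 0.5 counts added to ratios. RNAfold 2.7.2 folded the annotated hairpins. The members and lists were chosen with earlier results of these data known. Named genes were the members, 4 companion genes and the 3 nearest to the most abundant member. Also named were the 3 most abundant others that were splice-bounded or start-proximal. Mir6958, Mir382, Mir668, Mir139, Mir149, Mir144, Mir150 and the Mir124a loci were named after their values were seen. On simulated data for the comparison of libraries over 540 genes, 87 of 100 changed 4-fold, 7 of 100 changed 1.5-fold and 3 of 340 unchanged genes were called. The simulated counts held counting error only. The real libraries varied beyond it, with a common coefficient of variation of 38.6% by edgeR over 427 genes. The simulated calls therefore do not give the rate of false calls in the real data. TMM factors (edgeR 4.0.16), DESeq2 1.42.0 size factors, filters, tolerances, denominators and each replicate left out were alternatives, run in Python 3.11.15, SciPy 1.17.1 and R 4.3.3.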

Additional observations from a re-analysis of the deposited data

How the results depend on the processing

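Of 95 values recomputed under alternatives, 78 stayed within the replicate spread, the direction or 1.5 times the count, 14 moved and 3 reversed. Part of the 78 was fixed in advance. Leaving out a replicate could not count as a move, because each library lies closer to the mean than the SD. Filters on total counts could not change the log2 ratio of a member. With all reads as the denominator, the share of the 7 members was 0.239% and that of the mirtrons 0.0639%; with unstranded counts the mirtrons took 0.185%. Genes called between the libraries numbered 67 with at least 50 counts in total and 301 with the adjusted p alone, where 6 members passed. The log2 ratio of Mir484 turned to 0.056 with TMM and 0.16 with DESeq2 size factors; the other members kept their directions. The log2 ratio of the summed blood list was -0.76 without Mir451a, against 0.89 with it, an alternative chosen after seeing the data. Scaling moved the median log2 ratio of all genes tested, which was -0.17 with library totals, -0.10 with TMM and -0.00094 with DESeq2 size factors, and the share of called genes higher in replicate 1 was 38.6%, 46.9% and 55.6% in that order. Splice-bounded genes numbered 21 at a tolerance of 0 bases and 28 at 10, Mir702 included at 10. No paired analysis was possible because there is 1 group, and leaving out a replicate gave levels but no comparison of libraries. Genes under 10 counts in total were not tested.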

Other observations

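Some intronic hairpins meet an intron end at 1 side only, as Mir702 does at a tolerance of 5 bases. There were 213 such genes outside the members; 61 were detected, at a median of 5.13 CPM, and 3 stood above Mir702. These were Mir382 (17116.5 CPM in replicate 1 against 16918 CPM in replicate 2), Mir369 (2932 and 1867 CPM) and Mir668 (1019 and 1535 CPM), all in Mirg, a long noncoding RNA of the imprinted Dlk1-Dio3 region.

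Of all genes, 110 were start-proximal as defined above, and 40 of these were detected. Mir126a, an endothelial microRNA in Egfl7, had 14888 CPM in replicate 1 against 9301 CPM in replicate 2. Mir30d had 10544 CPM in replicate 1 against 9502 CPM in replicate 2. Mir125a had 4772 CPM in replicate 1 against 10636 CPM in replicate 2, a log2 ratio of -1.16 that was called.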
